A study of Zea mays with 24 samples.

Results

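The comparison described here set leaves of maize plants grown at a maximum daily temperature (MDT) of 37°C against leaves of plants grown at 31°C MDT, at the vegetative stage V4, and asked which alternative splicing (AS) events differed between the MDTs. Its members were the 6 V4 libraries labelled with these MDTs, 3 at 37°C and 3 at 31°C, of 24 libraries in the series. The other libraries came from V4 plants at 33°C and 35°C and from V5 plants at all 4 MDTs, with 3 libraries in each group. All plants were of the inbred line W22, wild type, and each library was made from poly(A) RNA of the midlamina of the newest fully expanded leaf, taken at 20 days after germination (DAG) at V4 and 27 DAG at V5. Nights were set a fixed step below the MDT, so that night temperatures also differed between the groups. The study used duplicate growth chambers for each MDT and the labels do not name the chamber of a library, so the chamber and the MDT cannot be told apart. The labels number the libraries of a group as replicates and do not say that each came from a separate plant, so that p-values measure the spread between these samples.

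During splicing the spliceosome joins a donor site at the start of an intron to an acceptor site at its end, and SR proteins and other RNA-binding regulators bind nearby and help to select the sites. Plant genes most often vary their transcripts by leaving an intron in the mRNA, and a retained intron frequently introduces a premature stop codon. Genes for SR proteins are themselves well known for extensive AS in plants. The tables separate 5 types of events, namely retained introns (IR), skipped exons (ES), alternative acceptor sites (A3SS), alternative donor sites (A5SS) and mutually exclusive exons (MXE). The inclusion level ψ is the share, corrected for isoform length, of the isoform that retains the intron, includes the exon, or uses the splice site giving the longer exon. For MXE it is the share of the isoform with 1 of the 2 exons.

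The V4 table listed 22077 events in 8125 genes, and 6246 events in 3434 genes had the required value in at least 2 libraries of each MDT and a mean of at least 10 reads. Reads summed over all events ranged from 1899702 to 2818842 per library at 37°C and from 1782669 to 2286472 at 31°C, and a tested event had a median of 59.2 reads per library. The libraries held 9549 ± 396 detected events at 37°C and 9329 ± 230 at 31°C (SD, n = 3 each, two-sided exact permutation p = 0.5), that is, events with reads of both isoforms. Replicate 3 at 37°C had the most reads, 2818842, and the most detected events, 9999. By the distances in ψ, no library stood apart. Over 2021 events with at least 50 reads in each of the 6 libraries, ψ differed on average by 6.23 to 6.66 percentage points between a 37°C and a 31°C library, by 4.70 to 4.95 points between 37°C libraries and by 4.37 to 4.45 points between 31°C libraries. RNA came from pieces of leaf lamina and not from sorted cells. A shift of isoforms within cells and a shift in the mix of cells therefore cannot be told apart. The gene table of RefSeq matched 0 of the nuclear gene identifiers, and most genes below are therefore named by identifier alone, with no statement on their function.

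At 37°C, 100 differential alternative splicing (DAS) events in 89 genes were called, 1.6% of the events tested. ψ was higher at 37°C in 53 of them (0.849% of the events tested) and lower in 47 (0.752%). Calls required a false discovery rate (FDR) of 1% or less in a quasi-binomial test of inclusion and skipping reads, with Benjamini-Hochberg adjustment run separately for the 5 types, and mean ψ values more than 5 points apart. IR gave 40 DAS events (2.2% of the IR events tested), with more retention at 37°C in 25 and less in 15. ES gave 29 (1.96%), with more inclusion in 15 and less in 14. A3SS gave 16 (0.847%, 5 higher and 11 lower), A5SS gave 14 (1.54%, 8 higher and 6 lower) and MXE gave 1 (0.633%, lower).

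**Figure D1:**
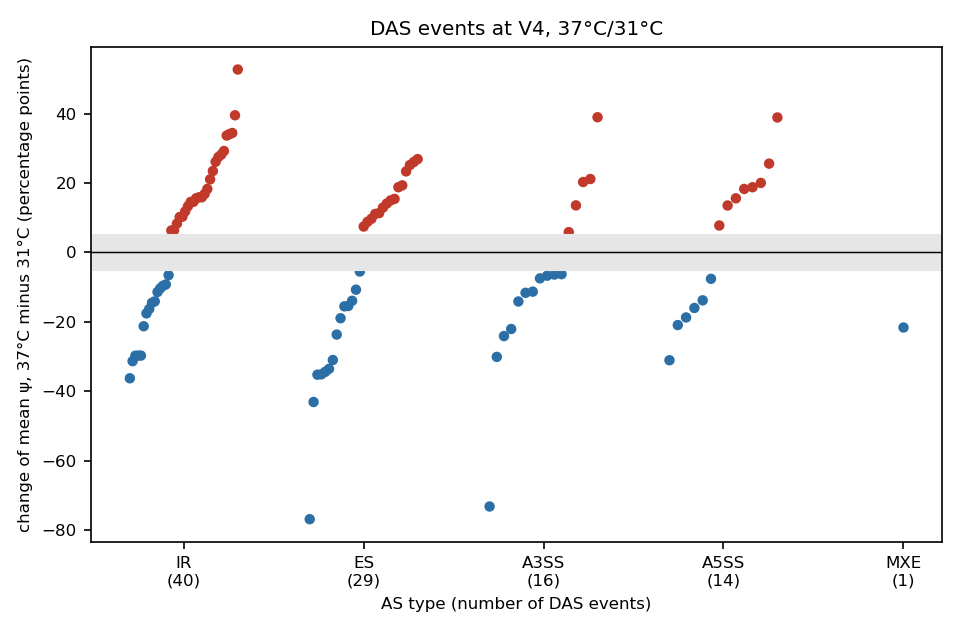
Change of mean ψ between 37°C and 31°C MDT at V4 (percentage points, y axis) for the 100 DAS events, by AS type (x axis, with the number of events). Each point is 1 event, red where ψ was higher at 37°C and blue where it was lower, and the grey band marks differences of 5 points or less, which were not called. IR and ES events reach in both directions, whereas 11 of the 16 A3SS events lie below 0.

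The change of a DAS event had a median size of 17.2 points and ranged from 5.53 to 76.9 points. DAS events were covered by a median of 217 reads per library, against 59.2 reads over all events tested, and 97 of them had a value in all 6 libraries. In these 97 the 3 libraries at 37°C lay on 1 side of those at 31°C. Over the tested events with a value in all 6 libraries, 25.3% showed such a separation, namely 28% of IR, 27.7% of ES, 23.1% of A3SS, 21.8% of A5SS and 17.8% of MXE events. A further 14 events passed the FDR with a difference of 5 points or less. The count of DAS events was 44 without 37°C replicate 3 and 58 without 31°C replicate 3. It was 53 with edgeR's quasi-likelihood test and 1 with limma on the log2 ratio of the reads, although 1059 events there had an unadjusted p below 0.05, against 1143 in the quasi-binomial test (18.3% of the events tested, 9.3% higher and 9% lower).

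The 5 genes for splicing regulators that the study singled out after looking at these samples held 30 tested events. ψ was higher at 37°C in 1 and lower in 2 of these that were DAS, in SRP and SCL33, against 0.849% and 0.752% of all events tested. The median change over the 30 events was −5.60 points, against 0.0667 points over all events tested. Since the study picked the genes on these libraries, the counts are not independent evidence of a direction. Several of their events overlap and share reads.

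SRP (Zm00001d051139), annotated in the study as an RNA-binding protein with RNA recognition motifs, had a skipped exon of 47 bases at chr4:145547764-145547810 in B73 RefGen_V4. Its ψ was 4.2%, 2.3% and 2.0% in the 37°C libraries, against 26.6%, 18.8% and 20.1% in the 31°C libraries. The exon was thus almost always skipped at 37°C, whereas a sizeable minority of the transcripts held it at 31°C. The mean was 2.83 ± 1.19% at 37°C and 21.8 ± 4.18% at 31°C (SD, n = 3 each). The difference was −19.00 ± 2.51 points, with the SE taken from these SDs, as for every SE below. The quasi-binomial test with limma moderation gave an FDR of 1.29e-05. This exon was called in all 6 fits that left out 1 library and by edgeR. Between 444 and 537 reads covered the event in the 37°C libraries, against 171 to 192 reads in the 31°C libraries. The other tested event of SRP, an intron of 126 bases at chr4:145547913-145548038, was retained at 96.4%, 83.4% and 89.0% at 37°C, against 70.3%, 68.7% and 68.8% at 31°C, and did not pass the threshold (FDR = 0.0203 by the same limma-moderated test).

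SCL33 (Zm00001d022243), an SR protein of the SCL subfamily, had both of its tested exons called, in opposite directions. An exon of 105 bases at chr7:173493102-173493206 had a ψ of 26.3%, 24.7% and 34.5% at 37°C, against 14%, 7.7% and 5.9% at 31°C. Inclusion was higher by 19.30 ± 3.90 points at 37°C (SE, n = 3 each, limma-moderated FDR = 0.00326), and the call was lost without 31°C replicate 2 (FDR = 0.0101) or 31°C replicate 3 (FDR = 0.0197). An exon of 188 bases at chr7:173494317-173494504 was rarely included at either MDT, with 3.8%, 3.3% and 2.9% at 37°C, against 9.4%, 7.6% and 9.6% at 31°C. Its difference of −5.53 ± 0.69 points (SE, n = 3 each, limma-moderated FDR = 0.000421) was just above the threshold of 5 points.

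**Figure D2:**
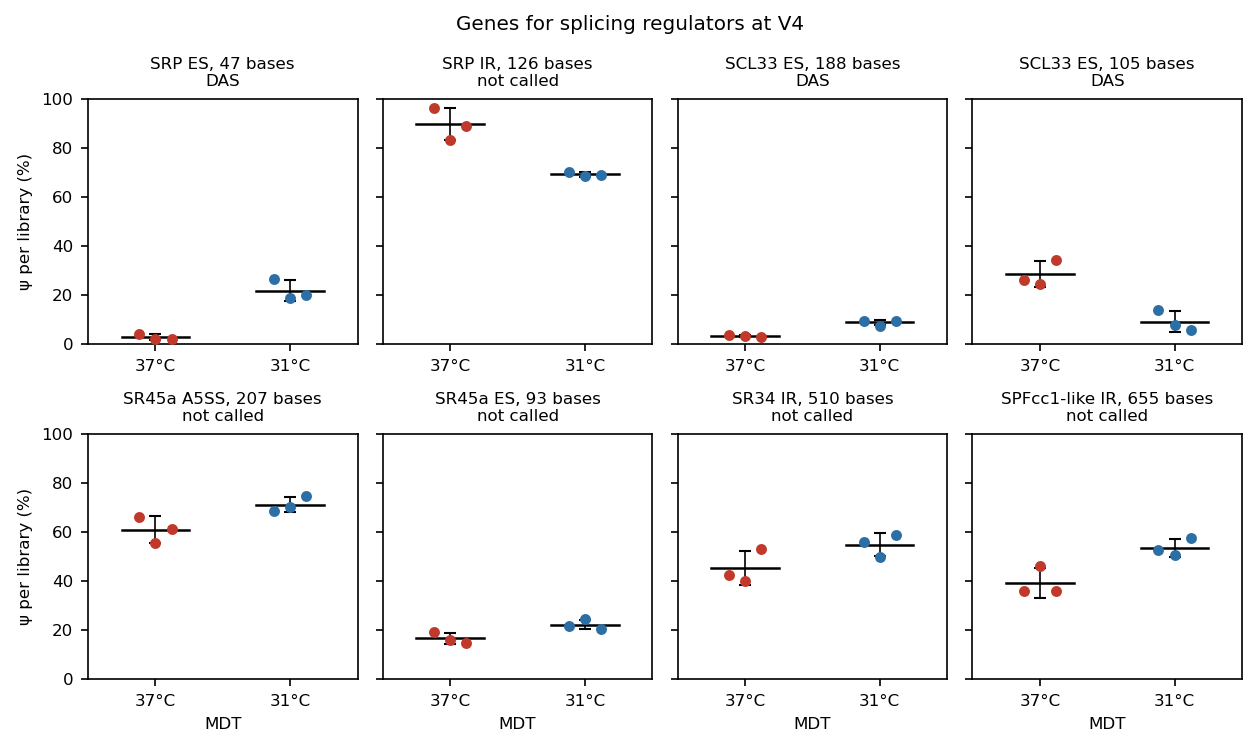
ψ in each library (%, y axis) of 8 events in 5 genes for splicing regulators at 37°C (red) and 31°C (blue), with the mean (bar) and SD (whiskers) of 3 libraries. The events were picked by the smallest FDR within a gene and AS type, a choice that favours separated groups. The 37°C and 31°C libraries are apart in 7 of the 8 panels, against 25.3% of all tested events with 6 values. The SRP exon and the SCL33 exons are the DAS events among them.

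SR45a (Zm00001d047847), a member of the SR45 family of splicing regulators, had 8 tested events and no DAS event. The difference was negative in all 8, between −11.6 and −0.80 points, against 48.5% of all events tested. In 3 of them the unadjusted p was below 0.05, against 18.3% of all events tested (9% lower). These 3 overlap within chr9:143197907-143198116 and share reads. The donor pair 207 bases apart at chr9:143197907-143198113 gave 66.2%, 55.3% and 61.0% at 37°C, against 68.6%, 70.0% and 74.5% at 31°C. The groups did not overlap, yet the lowest 31°C library was only 2.4 points above the highest 37°C library (limma-moderated FDR = 0.0364). Over the 4 MDTs from 31°C to 37°C the V4 means were 71.0%, 57.7%, 46.5% and 60.8%, lowest at 35°C. At V5 it was 34.8% at 37°C and 52.3% at 31°C, and there it was called (limma-moderated FDR = 4.63e-05).

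SR34 (Zm00001d040672), an SR protein, had 10 tested events, none of them DAS. Its intron of 510 bases had a ψ of 42.3%, 40.1% and 53.0% at 37°C, against 55.8%, 49.7% and 58.8% at 31°C (limma-moderated FDR = 0.212), so that the groups overlapped. They were apart in an intron of 1567 bases and in acceptors 21 bases apart (limma-moderated FDR = 0.242 and 0.527), and overlapped in its other events. Over all tested events with 6 values, 25.3% had groups apart. In SPFcc1-like (Zm00001d048415) 8 events were tested and none was DAS. Its intron of 655 bases was retained at 35.7%, 46.2% and 35.7% at 37°C, against 52.7%, 50.4% and 57.4% at 31°C, without overlap and with an FDR of 0.0725 by the limma-moderated test.

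The largest retention changes that met the rule for named events were seen in 8 genes, and retention was higher at 37°C in 5 of them. The intron of Zm00001d008933 at chr8:25925798-25926078 (281 bases) had the largest change of the 40, with a ψ of 88.9%, 92.3% and 92.3% at 37°C, against 39.6%, 39.2% and 36.6% at 31°C. Of the isoforms that this event compares, the retained one prevailed at 37°C and the spliced one at 31°C. The difference was 52.70 ± 1.47 points (SE, n = 3 each, limma-moderated FDR = 0.000169). Transcripts spliced to another acceptor do not enter this ψ, so it is not the share of all transcripts that keep the intron. This intron was the event that limma on read ratios called as well.

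Next to this intron, the same gene had a DAS event between acceptors 24 bases apart at chr8:25926079-25926102, with lower ψ at 37°C. These 24 bases directly follow the intron, so reads of its splice junction can count in both events. Fewer such reads would raise ψ of the intron and lower ψ of the acceptors, so the calls are not independent. The longer exon had 5.5%, 3.2% and 4.9% at 37°C, against 14.1%, 16.0% and 18.5% at 31°C (−11.67 ± 1.45 points, SE, n = 3 each, limma-moderated FDR = 0.00468). This smaller change remained a call in 1 of the 6 fits without a library, that without 31°C replicate 1.

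The most deeply covered of these 8 introns was in Zm00001d052093 (chr4:179377468-179377667, 200 bases), with 1150 to 1215 reads per library at 37°C and 685 to 790 at 31°C. It was retained at 57.3%, 57.3% and 58.7% at 37°C, against 21.8%, 25.4% and 22.9% at 31°C. The change of 34.40 ± 1.16 points (SE, n = 3 each) had the smallest FDR of the IR events, 1.45e-08 in the limma-moderated test.

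Retention was also higher at 37°C in Zm00001d048541 (60.0 ± 1.91% at 37°C, 20.5 ± 5.25% at 31°C), Zm00001d002836 (59.6 ± 2.44% and 25.5 ± 4.63%) and Zm00001d046399 (56.8 ± 9.40% and 23.1 ± 6.03%, SD, n = 3 each). Retention was lower at 37°C in 3 introns. In Zm00001d036227 an intron of 89 bases was retained at 26.2 ± 4.37% at 37°C and 62.5 ± 9.96% at 31°C, and in Zm00001d002534 an intron of 84 bases at 42.8 ± 3.93% and 72.6 ± 5.46%. The intron of 619 bases in Zm00001d053446 had 15.4%, 14.6% and 16.2% at 37°C, against 48.5%, 45.3% and 46.5% at 31°C. The limma-moderated FDR of these 6 introns was between 0.00177 and 0.00731. Each of these 6 calls was lost in at least 1 fit without a library (FDR of at most 0.0333), all 6 of them without 37°C replicate 3 and 5 without 31°C replicate 3. The introns of Zm00001d002836 and Zm00001d002534 were called in 0 of the 6 fits, and edgeR did not call these or the introns of Zm00001d046399 and Zm00001d036227 (FDR between 0.0104 and 0.0168).

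Among the 8 exons that the rule named, 6 were included less often at 37°C and 2 more often. In Zm00001d040855 an exon of 219 bases (chr3:72171134-72171352) had 16.6%, 24.5% and 20.7% at 37°C, against 66.0%, 63.4% and 61.8% at 31°C. It was mostly skipped at 37°C and mostly included at 31°C (−43.13 ± 2.59 points, SE, n = 3 each, limma-moderated FDR = 4.90e-06). A longer form of this exon that shares its start, of 279 bases, gave 9.33 ± 3.65% at 37°C and 44.6 ± 3.06% at 31°C (SD, n = 3 each).

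In Zm00001d027756 an exon of 134 bases (chr1:12714974-12715107) was included at 59.9%, 59.7% and 69.0% at 37°C, against 94.5%, 94.0% and 93.2% at 31°C. It was nearly constitutive at 31°C with an SD of 0.656 points, and skipped far more often at 37°C. An exon of 449 bases at a locus the study assembled as new (BGI_novel_G001488, chr5:6155155-6155603) had the same form, with 68.5%, 68.6% and 70.9% at 37°C, against 92.2%, 95.5% and 91.4% at 31°C. In Zm00001d046923 the values were more spread at 37°C, with 60.4%, 64.6% and 45.8%, against 95.9%, 88.7% and 89.6% at 31°C. These 3 exons stayed called in all 6 fits without a library, and their limma-moderated FDR was 3.49e-06, 5.85e-06 and 0.00098 in the order given.

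Zm00001d021396 had an exon (chr7:150914790-150914890) that was listed both as a skipped exon and as 1 of 2 mutually exclusive exons. As a skipped exon it was included at 46.7%, 42.5% and 55.2% at 37°C, against 80.2%, 83.3% and 81.7% at 31°C. As a mutually exclusive exon its share was 19.1%, 17.1% and 26.2% at 37°C, against 41.9%, 42.2% and 42.6% at 31°C. Both were called, with a limma-moderated FDR of 3.49e-06 and 5.66e-05, but they rest on shared reads.

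Inclusion was higher at 37°C in Zm00001d029515, with 46.3 ± 2.75% at 37°C and 19.4 ± 5.96% at 31°C for an exon of 131 bases (SD, n = 3 each, limma-moderated FDR = 0.00364). The remaining exon, of 113 bases in Zm00001d027788, had 46.0 ± 7.31% at 37°C and 81.2 ± 6.71% at 31°C (limma-moderated FDR = 0.00738). The call in Zm00001d029515 was lost without 31°C replicate 1 or 2 and with edgeR (FDR = 0.0113), and that in Zm00001d027788 was lost in 5 of the 6 fits without a library.

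**Figure D3:**
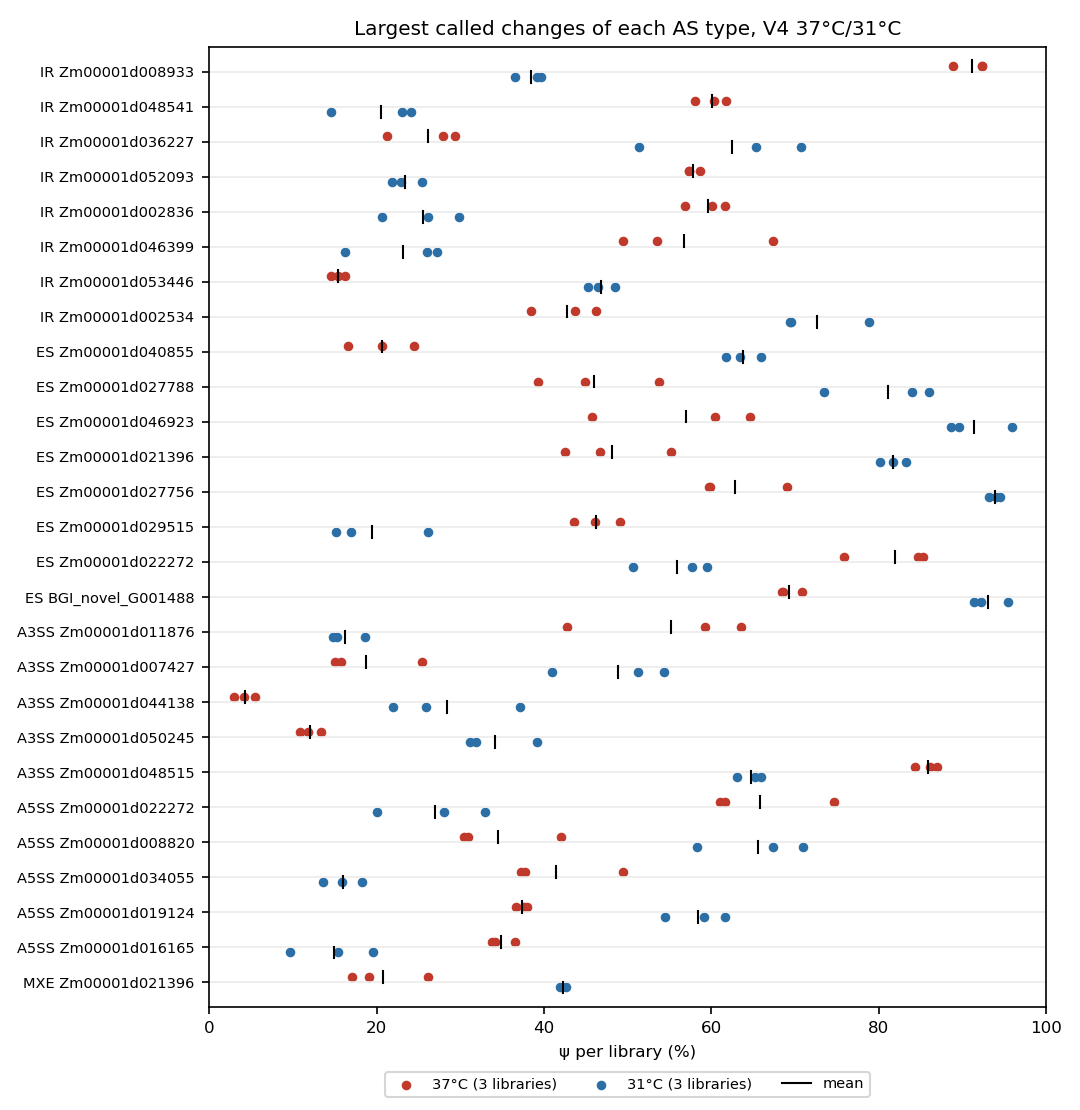
ψ in each library (%, x axis) of the 27 events that the rule named, 8 IR, 8 ES, 5 A3SS, 5 A5SS and 1 MXE event (y axis, AS type and gene), at 37°C (red, upper row of each event) and 31°C (blue, lower row), with the mean of 3 libraries as a black tick. The groups are apart in every row, which the rule required, and the largest distance is that of the intron of Zm00001d008933.

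Zm00001d022272 had more DAS events than any other gene, 5 in number, and all showed higher ψ at 37°C. Within an interval of 230 bases (chr7:174089405-174089634), the retained intron event had a ψ of 72.8%, 74.6% and 75.4% at 37°C, against 55.2%, 43.8% and 39.4% at 31°C. Reads of shorter pieces inside the interval can count as retained, so this ψ may exceed the share of transcripts that keep all of it. Use of the donor that lengthens the exon by 46 bases into that interval had 61.1%, 61.7% and 74.7% at 37°C, against 32.9%, 28.0% and 20.0% at 31°C. An exon of 54 bases inside it was included at 84.7%, 85.3% and 75.9% at 37°C, against 59.5%, 57.7% and 50.6% at 31°C. All 3 thus marked more transcripts that keep sequence of this interval at 37°C, and they share reads.

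Farther along, an exon that ends at position 174090934 of chromosome 7 was listed in a form of 102 bases and a form of 72 bases. The 102-base form was included at 96.3%, 96.0% and 98.2% at 37°C, against 74.8%, 69.0% and 71.2% at 31°C, a difference of 25.17 ± 1.83 points (SE, n = 3 each, limma-moderated FDR = 3.49e-06). The 72-base form was included at 98.9 ± 0.473% at 37°C and 87.6 ± 1.53% at 31°C (SD, n = 3 each). Skipping of this exon of Zm00001d022272 was thus rare at 37°C, and both forms stayed called in all 6 fits without a library. The IR and A5SS calls were lost without 37°C replicate 3 (FDR = 0.0186 and 0.0126) and that of the 54-base exon without 31°C replicate 3 (FDR = 0.0105).

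In Zm00001d016679, chosen after its values were seen, the 3 DAS events were introns that did not move together. An intron of 959 bases had 20.1%, 21.3% and 21.2% at 37°C, against 27.2%, 27.4% and 27.7% at 31°C, and an intron of 649 bases had 19.2%, 22.9% and 19.5%, against 29.5%, 29.7% and 30.2%. Downstream in coordinate, an intron of 1776 bases had 58.0%, 63.8% and 61.9% at 37°C, against 44.4%, 45.4% and 43.5% at 31°C. Retention was lower at 37°C in the first pair and higher in the third, with 813 to 1436 reads on each event in each library. The limma-moderated FDR was between 0.000912 and 0.00177, and edgeR called none of the 3 (FDR between 0.0201 and 0.112). All were lost without 37°C replicate 3.

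In Zm00001d034055 a retained intron of 490 bases and a donor 383 bases away share their start. The intron had 38.0 ± 6.03% at 37°C and 16.9 ± 3.04% at 31°C and the donor 41.5 ± 6.93% and 15.9 ± 2.35% (SD, n = 3 each), and edgeR called neither (FDR = 0.0256 and 0.0121). The intron was called in 0 of the 6 fits without a library and the donor in 3.

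Among alternative acceptors, the longer exon of Zm00001d048515, which differs by 16 bases (chr9:157631150-157631165), had a ψ of 87.0%, 84.4% and 86.2% at 37°C, against 65.2%, 65.9% and 63.1% at 31°C. With 547 to 758 reads per library this was a narrow and complete separation (21.13 ± 1.14 points, SE, n = 3 each, limma-moderated FDR = 8.38e-06). In Zm00001d050245 the longer exon, by 742 bases, had 13.4%, 10.8% and 11.8% at 37°C, against 31.2%, 39.2% and 31.9% at 31°C (limma-moderated FDR = 2.14e-05). In Zm00001d044138 it was near absent at 37°C, with 5.5%, 3.0% and 4.2%, against 37.2%, 25.9% and 22% at 31°C. These 3 calls held in all 6 fits without a library, whereas those in Zm00001d011876 (55.2 ± 10.9% at 37°C, 16.2 ± 2.06% at 31°C) and Zm00001d007427 (18.7 ± 5.79% and 48.9 ± 7.00%, SD, n = 3 each) each failed in 3 of them, with an FDR of up to 0.0443.

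Among alternative donors, Zm00001d019124 had a pair 28 bases apart (chr7:18112706-18112733) covered by 611 to 823 reads. The longer exon had 36.7%, 38.0% and 37.6% at 37°C, against 59.1%, 54.5% and 61.6% at 31°C (−20.97 ± 2.11 points, SE, n = 3 each, limma-moderated FDR = 3.51e-05). It was the only 1 of the 5 named A5SS events that stayed called in all 6 fits without a library. Zm00001d008820 had 34.5 ± 6.53% at 37°C and 65.6 ± 6.54% at 31°C, and Zm00001d016165 had 34.9 ± 1.51% and 14.9 ± 5.02% (SD, n = 3 each). Both missed the threshold with edgeR (FDR = 0.0121 and 0.0128).

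The DAS events with the very largest differences were thinly covered and not named by the rule. An exon of 83 bases in Zm00001d031216 was included at 8.4% and 9.7% in 37°C replicates 2 and 3, with no value in replicate 1, against 76.3%, 88.5% and 93.1% at 31°C, on 7 to 22 reads per library. The longer exon of an acceptor pair 55 bases apart in Zm00001d016995 had 26.8%, 17.3% and 11.7% at 37°C, against 91.6% and 92.1% in 31°C replicates 1 and 2, on 9 to 17 reads. They are given as values chosen after they were seen.

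Events were also described by the length of the alternative part. Of the 40 IR events that were DAS, 35 were introns longer than 250 bases, 3.27% of the 1070 such introns tested, while 5 of 745 introns up to 250 bases were called (0.671%), against 2.2% of all IR events. The longer introns had a median of 64.7 reads per library and the shorter ones 52.2, and the part of read depth in this difference was not tested. Over all tested introns the median change was 0.533 points for the longer and 0.10 points for the shorter ones. This lean to higher retention was not seen at V5, where the median over these IR events was −0.3 points. There it was −0.167 points for introns above 250 and up to 1000 bases, and −1.27 points above 1000 bases. Among shorter introns it was −0.217 points up to 100 bases and −0.367 points above 100 and up to 250 bases.

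Of the 29 exons that were DAS, 13 had a length divisible by 3, or 44.8%, against 37.0% of the ES events tested. Of 373 tested exons of 52 to 200 bases that keep the reading frame, 10 were DAS (2.68%, 8 higher and 2 lower), and of 631 out-of-frame exons of that length 13 were DAS (2.06%, 7 higher and 6 lower), against 1.96% of all ES events. At an unadjusted p below 0.05 the directions were more even, with 48 higher and 35 lower in frame and 55 higher and 57 lower out of frame. Fewer exons were called over 200 bases (4 of 334, 1.2%, all lower) and up to 51 bases (2 of 138, 1.45%, both lower), where 24 and 9 were higher and 36 and 15 lower at an unadjusted p below 0.05. The DAS exons ranged from 45 to 449 bases. Some of these calls are not separate exons. The higher in-frame calls include those of 54, 72 and 102 bases in Zm00001d022272, and the 72-base and 102-base forms share their end. The calls over 200 bases include the 219-base and 279-base forms of an exon in Zm00001d040855, which share their start.

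Acceptors only 3 bases apart, a common form of A3SS in which the acceptor dinucleotide occurs in tandem, leaned to 1 side. Of 305 such pairs tested, 4 were DAS (1.31%, against 0.847% of A3SS events), and in all 4 the longer exon was used less at 37°C. This class of pairs was singled out after its values were seen. In Zm00001d016070 the longer exon had 26.7%, 27.4% and 27.3% at 37°C, against 34.8%, 34.3% and 32.5% at 31°C, on 2051 to 6710 reads per library. In Zm00001d008625 it had 41.3%, 40.2% and 38.7% at 37°C, against 47.2%, 47.5% and 48.0% at 31°C. In Zm00001d014324 it had 20.0 ± 2.51% at 37°C and 31.3 ± 1.63% at 31°C, and in Zm00001d015929 65.2 ± 0.458% and 71.5 ± 0.854% (SD, n = 3 each). The limma-moderated FDR of the 4 pairs was between 0.00026 and 0.0021, while edgeR gave an FDR between 0.0418 and 0.273 and called none.

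Over all 305 pairs 3 bases apart the median change was −1.63 points, against −0.20 points over all A3SS events. Of the pairs with an unadjusted p below 0.05, ψ was lower at 37°C in 39 and higher in 8, whereas over all A3SS events it was lower in 170 and higher in 122. The mean ψ of the 249 pairs with a value in all 6 libraries was 42.6%, 43.0% and 42.9% at 37°C, against 46.0%, 45.5% and 45.4% at 31°C. At V4, ψ was lower at 37°C in 59.7% of the 305 pairs, against 53.0% of all A3SS events. At V5, where other libraries were used, it was lower in 69.0% of 290 of these pairs, against 57.0% of the A3SS events. The median change there was −2.93 points, against −0.61 points over the A3SS events.

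Averaged over all events of a type, ψ differed little between the MDTs. It was 66.4%, 65.9% and 65.8% for 820 exons at 37°C, against 65.5%, 65.4% and 65.5% at 31°C, and 45.4%, 45.2% and 45.1% for 1266 acceptor pairs at 37°C, against 46.4%, 45.8% and 46.0% at 31°C. For these types, and for A5SS with 44.0 ± 0.559% at 37°C and 43.2 ± 0.064% at 31°C (SD, n = 3 each), the groups did not overlap. The two-sided exact permutation p was 0.1, the smallest that 3 libraries against 3 can give, and 0.167 after adjustment over 5 types. The mean retention of 1392 introns was 33.2%, 31.7% and 32.8% at 37°C, against 32.0%, 31.5% and 31.9% at 31°C, and the groups overlapped (exact permutation p = 0.3), as they did for MXE (p = 0.4).

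The V4 libraries at 33°C and 35°C took no part in the calls. Their difference, 35°C minus 33°C, had the sign of the 37°C/31°C change in 73 of the 100 DAS events, with a median of 2.09 points in that direction, and in 55.4% of the 6017 tested events with values at both MDTs. In 89 of the 100 events the means at 33°C and 35°C both lay between those at 31°C and 37°C, against 22.8% of all tested events, a count that the choice of events with far-apart ends favours. Some events followed the MDT step by step. The A5SS event of Zm00001d022272 averaged 27.0%, 36.4%, 47.0% and 65.8% at 31°C, 33°C, 35°C and 37°C, and the intron of Zm00001d052093 averaged 23.4%, 28.9%, 37.9% and 57.8%. Others had their largest step at one end. The intron of Zm00001d008933 averaged 38.5%, 77.5%, 85.1% and 91.2% over the same MDTs, and the ES event of Zm00001d021396 averaged 81.7%, 76.1%, 75.3% and 48.1%.

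**Figure D4:**
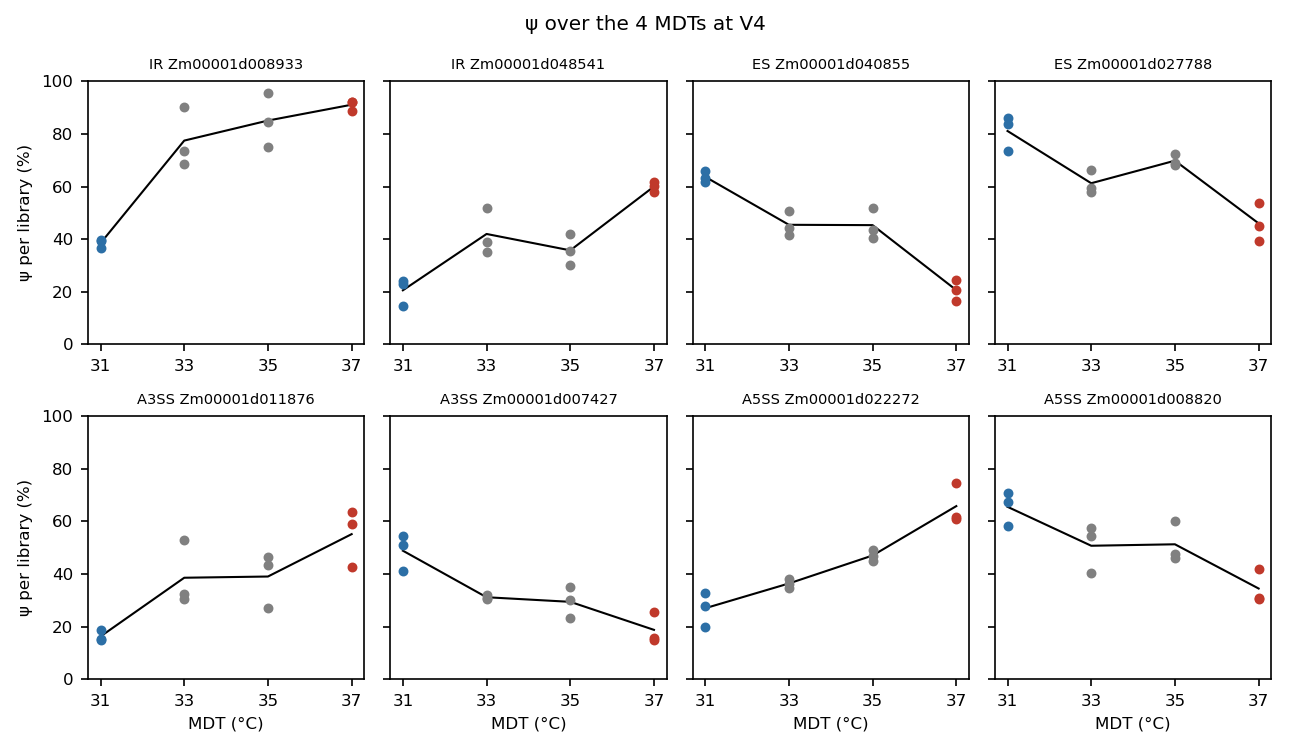
ψ in each V4 library (%, y axis) at 31°C, 33°C, 35°C and 37°C MDT (x axis) for the first 2 named events of IR, ES, A3SS and A5SS, with the line joining the means of 3 libraries. The events were chosen by their values at 31°C (blue) and 37°C (red), and the values at 33°C and 35°C (grey) lie between or near these ends.

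Of the 100 DAS events, 98 could be tested at V5 between 37°C and 31°C, in libraries that shared no sample with V4. ψ changed in the same direction there in 93 of them (94.9%), against 62.3% of the 5547 events tested at both stages. The V5 comparison called 90 events, 1.19% of 7565 tested, and 36 events were among both these 90 and the 100 of V4, all with the V4 direction. The changes were smaller at V5 in 85 of the 98 events (86.7%), against 55.0% of the 5547 events tested at both stages. The median change of the 98 events at V5 was 9.38 points in the V4 direction, against 17.2 points at V4. The events were chosen by their V4 change, and this choice favours a larger value at V4. The 37°C/31°C change itself differed between the stages in 14 events, 0.252% of those tested at both, and 10 of these were V4 DAS events. All 27 tested exons and all 16 acceptor pairs kept their direction at V5, as did 13 of 14 donors and 36 of 40 introns. The exon of BGI_novel_G001488, for example, averaged 70.7% at 37°C and 90.8% at 31°C at V5, and the SRP exon averaged 1.7% and 7.9%.

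**Figure D5:**
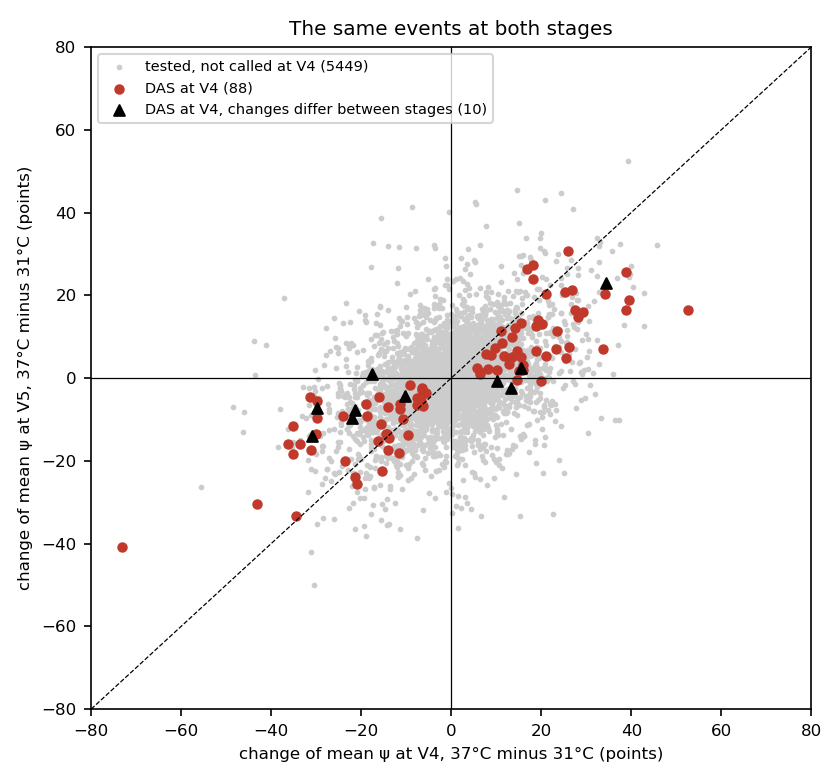
Change of mean ψ between 37°C and 31°C MDT (percentage points) at V4 (x axis) and at V5 (y axis) for 5547 events tested at both stages. DAS events of V4 are red, or black triangles where the changes differed between the stages (10 events), other events are grey and the dashed line marks equal changes. Of the 98 DAS events, 93 lie in the quadrants of like sign and 85 changed less at V5 than at V4. Over all events shown these shares were 62.3% and 55.0%.

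The study also named genes outside splicing. None of the 21 tested events of 5 such genes (CAU1, a pair of MAPKKK3 genes, NCRK and NF-YB1) was DAS, against 1.6% of all events tested, so that a count of 0 is near the background. The difference was negative in all 7 that had an unadjusted p below 0.05, and 5 of these lay in CAU1, where 4 overlap and share reads. Over all events tested, 18.3% had such a p, 9% lower and 9.3% higher at 37°C. The study picked these genes on these libraries too, so the counts are not independent evidence of a direction. CAU1 (Zm00001d004109), whose Arabidopsis counterpart encodes a protein arginine methyltransferase, held the event with the smallest FDR of the list. Its exon of 69 bases had 42.1%, 39.5% and 52.7% at 37°C, against 78.3%, 64.2% and 85.6% at 31°C, a difference of −31.27 ± 7.47 points (SE, n = 3 each) on 29 to 50 reads per library (limma-moderated FDR = 0.0338). CONSTANS-LIKE9 and HSFTF9 had listed events but none with enough values to test. In 3 genes for phosphatidylethanolamine-binding proteins, a family that includes regulators of flowering, 11 events were tested and none was DAS (smallest limma-moderated FDR = 0.232), which at 1.6% over all events is near the background too.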

How the data were processed

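According to the methods, reads were filtered with SOAPnuke, aligned with HISAT2 to B73 RefGen_V4, and rMATS listed the events. Reads of W22 were thus mapped to the genome of another line, at both MDTs alike. Inclusion and skipping reads were deposited as raw counts per event and library, and ψ was deposited by the authors as a fraction, the reads of each isoform being divided by its effective length. The ratio of effective lengths equalled (149 + length)/149 in every event that could be checked, which matches reads of 150 bases, whereas the methods state shorter reads. Of the columns of single samples, 67 were assigned to a sample by name and 5 were not and were left unused. Inclusion reads of 31°C replicates 2 and 3 at V4 were recovered from skipping reads, ψ and that ratio (93.7% and 93.8% within 5% over the rounding of ψ), and reads gave ψ for the V4 libraries at 33°C. Positions are 1-based. Repeated heading lines, 4 per table, were left out.

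A quasi-binomial model was fitted per event in R 4.3.3, its spread was moderated with squeezeVar of limma 3.58.1 and kept at or above 1, and FDR was adjusted within each AS type. Stages were compared by the difference of the changes in log odds. Exact permutation tests used scipy 1.17.1. The model was checked on simulated counts with a set spread between libraries, which cannot decide between this model and the alternatives. Alternatives were the edgeR 4.0.16 quasi-likelihood test, limma, other filters and thresholds, a replicate block and leaving out each library. Named events were DAS, had a value in all 6 libraries, 20 or more reads on average at each MDT and groups apart, and ranked among the 8 (IR, ES), 5 (A3SS, A5SS) or 2 (MXE) largest changes of their type, with 1 event per gene. Genes with DAS events of 2 or more types and the genes named by the study were added. Members, lists and tests were chosen with earlier results of these data known. Lists by gene product and the leaf markers could not be applied, because no identifier matched. Reads are not independent molecules, and the tests cover counting and the spread between libraries.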

Additional observations from a re-analysis of the deposited data

Results flagged for a closer look

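The 37°C/31°C change differed between V5 and V4 in 14 of 5547 events tested at both stages (0.252%, at 1% FDR and with changes more than 5 points apart), and 10 of these were V4 DAS events. In all 10 the change was nearer to 0 at V5. The difference of the changes, V5 minus V4, was −15.77 points for an intron of Zm00001d015421 (V5 −2.47, V4 13.30), −10.90 points for one of Zm00001d029339 (V5 −0.63, V4 10.27) and 18.50 points for one of Zm00001d027734 (V5 0.90, V4 −17.60); the V5 change of these introns was small and of opposite sign. For other introns it was 22.43 points in Zm00001d011168 (V5 −7.33, V4 −29.77), 5.93 points in Zm00001d040979 (V5 −4.43, V4 −10.37) and −11.50 points in Zm00001d052093 (V5 22.90, V4 34.40). It was 16.97 points for the exon of Zm00001d027756 (V5 −14.07, V4 −31.03), 13.70 points for the MXE event of Zm00001d021396 (V5 −7.73, V4 −21.43), 12.50 points for the acceptors of Zm00001d050245 (V5 −9.60, V4 −22.10) and −13.07 points for the donors of Zm00001d018498 (V5 2.50, V4 15.57). The FDR of the difference (Benjamini-Hochberg adjustment, limma moderation) was between 2.20e-05 and 0.00929. Events chosen as DAS at V4 are more likely to show a smaller change elsewhere, and the part of this choice in the counts was not tested.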

How the results depend on the processing

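Of the 100 DAS events, 34 were called in all 6 fits that left out 1 library and 51 by edgeR too. All tests share 1 difference of ψ, so the other tests could move only the calls and not a direction. Leaving out 1 library gave 44 to 86 DAS events (44 without 37°C replicate 3, 58 without 31°C replicate 3) in 38 to 74 genes, 20 to 50 higher and 24 to 38 lower, with 11 to 35 IR, 17 to 26 ES, 9 to 15 A3SS, 6 to 12 A5SS and 1 MXE events, and 11 to 16 events that differed between the stages. The differences of mean ψ then ran from 0.417 to 1.21 points (IR), 0.342 to 0.622 (ES), −0.938 to −0.643 (A3SS), 0.516 to 1.05 (A5SS) and −2.35 to −0.726 (MXE), and that of detected events from −5.17 to 366. With an FDR of at most 5% there were 270 DAS events in 233 genes (138 higher, 132 lower, 125 IR, 75 ES, 38 A3SS, 30 A5SS, 2 MXE) and 31 events that differed between the stages. Testing only events with a value in all 6 libraries gave 152 DAS events in 134 genes (83 higher, 65 IR, 25 A5SS, 3 MXE), and with all 12 libraries 22 events differed between the stages. Sharing the spread over the 4 V4 groups gave 22 A5SS and 2 MXE events. The edgeR quasi-likelihood test gave 53 DAS events in 45 genes (26 higher, 27 lower, 15 IR, 4 A5SS). With limma on log2 read ratios there was 1 DAS event in 1 gene, higher and IR, with 0 lower and 0 ES, A3SS, A5SS and MXE events, and 1059 events had an unadjusted p below 0.05. With limma on the log2 odds of ψ, added after seeing the data, all of these counts were 0, with 1007 events at an unadjusted p below 0.05. The causes were not tested. Taking the median over events in place of the mean turned the MXE difference to 0.90 points. The replicate numbers were not taken as pairs, since the deviations of same-numbered libraries correlated at 0.0246, −0.00274 and 0.00876. A fit with the replicate block gave 102 DAS events, 3 of them MXE, and 7 events that differed between the stages. The depth of a tested event, a median of 59.2 reads, limits the calls to larger changes in thinly covered events.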

Other observations

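Among the DAS events outside the named genes, an exon of 45 bases in Zm00001d046112 (chr9:63974012-63974056), chosen after its values were seen, lies in a gene whose best Arabidopsis match in the study's annotation is spermidine synthase 3, an enzyme of polyamine synthesis. It was included at 60.9%, 56.4% and 64.9% at 37°C, against 75.9%, 79.7% and 73% at 31°C. The groups did not overlap, and the difference was −15.47 ± 3.13 points (SE, n = 3 each, limma-moderated FDR = 0.00784). The call was lost in 5 of the 6 fits without a library, all but that without 37°C replicate 3, and with edgeR (FDR = 0.0222).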
